A study of Mus musculus with 6 samples.

Results

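Sites of open chromatin that lost accessibility when bone marrow-derived macrophages (BMDMs) were given interleukin-4 (IL-4), both without and with the vehicle DMSO, are described here across the 6 libraries of the study. A site was counted as closed where its signal in the IL-4 library was at most 1/1.5 of that in the matching library without IL-4, after 0.1 was added to each value. The rule was applied to sites on chromosomes 1 to 19 with a mean signal of at least 3.2 over the 6 libraries. Positions are those of the mouse genome build mm9, as the files give them. Of 578591 sites in the table, 534067 lay on these chromosomes and 33476 passed the minimum. Of these 33476 tested sites, 782 (2.34%) were closed in both pairs and are called the members. The same fold in the other direction gave 3530 sites (10.5%) that were opened by IL-4 in both pairs. Since the members were chosen by the 4 libraries of these pairs, their levels in those libraries are a description.

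In the assay for transposase-accessible chromatin with sequencing (ATAC-seq), an enzyme cuts DNA and inserts sequencing adapters where nucleosomes leave it exposed, so the number of reads at a site follows how open it is. IL-4 signals through STAT6 and drives macrophages toward the alternatively activated state, which is linked to tissue repair and to defence against worms. A site that loses reads is one where nucleosomes or other proteins cover the DNA in more of the cells or for more of the time. Fewer cells with a site open and less opening in each cell cannot be told apart in bulk libraries.

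All libraries came from wild-type C57BL/6 mice, given as C57BL/6J in the growth protocol. The marrow had been grown into macrophages in medium conditioned by L929 cells, a source of the growth factor MCSF (CSF1), so that cells of every group had met that factor before treatment. The titles of all 6 carry the word Petri. The Untreated library had no treatment and the IL-4 library had recombinant murine IL-4 at 20 ng/ml for 24 hours. The DMSO library had the solvent alone, and the DMSO + IL-4 library had the solvent and IL-4. The LatA + IL-4 library had IL-4 with latrunculin A at 1 μM, a drug that binds actin monomers and stops them from polymerizing. The MCSF + IL-4 library had IL-4 with recombinant MCSF at 100 ng/ml. Each group was 1 library, so there was no replicate error, and every ratio below compares 2 libraries. IL-4 was given in 2 pairs, but the members were chosen by those pairs, so its effect on them was not tested. The number of mice behind each library was not given in the sources used here.

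The signal is in CPM, reads scaled to library size, here by the authors with edgeR's TMM method, and whole reads could be recovered from it. The libraries held from 12387332 to 19889902 reads in sites. A read was worth from 0.0479 (Untreated) to 0.0802 (DMSO + IL-4) units of signal, so a signal of 3.2 stood for 39.9 to 66.8 reads. The 95% intervals given for ratios of reads are exact (Clopper-Pearson) and cover no more than counting error, as these reads carried no molecular identifiers and need not come from independent molecules. Over all tested sites the level was not the same in the 6 libraries. The median log2 ratio was 0.33 for DMSO to Untreated, 0.54 for LatA + IL-4 to DMSO + IL-4 and 0.55 for MCSF + IL-4 to IL-4, and changes at the members are set against these values.

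The members were sites of ordinary height that dropped by a modest amount. Their median signal was 5.30 in the Untreated library (interquartile range 4.17 to 7.66) and 2.96 in the IL-4 library (2.23 to 4.20). It was 6.36 in DMSO (4.97 to 9.04) and 3.29 in DMSO + IL-4 (2.57 to 5.05). The medians were 6.69 in LatA + IL-4 (5.21 to 9.63) and 5.46 in MCSF + IL-4 (4.10 to 7.81). The members thus stood above the median of all tested sites without IL-4, where it was 4.12 (Untreated) and 4.96 (DMSO), and below it in the other 4 libraries, where it was 4.64 with IL-4, 4.97 with IL-4 in DMSO, 7.31 with added latrunculin A and 6.75 with added MCSF. Sites opened in both pairs had median levels of 1.96, 4.90, 2.45, 5.45, 7.10 and 7.74 in the same order of libraries.

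**Figure D1:**
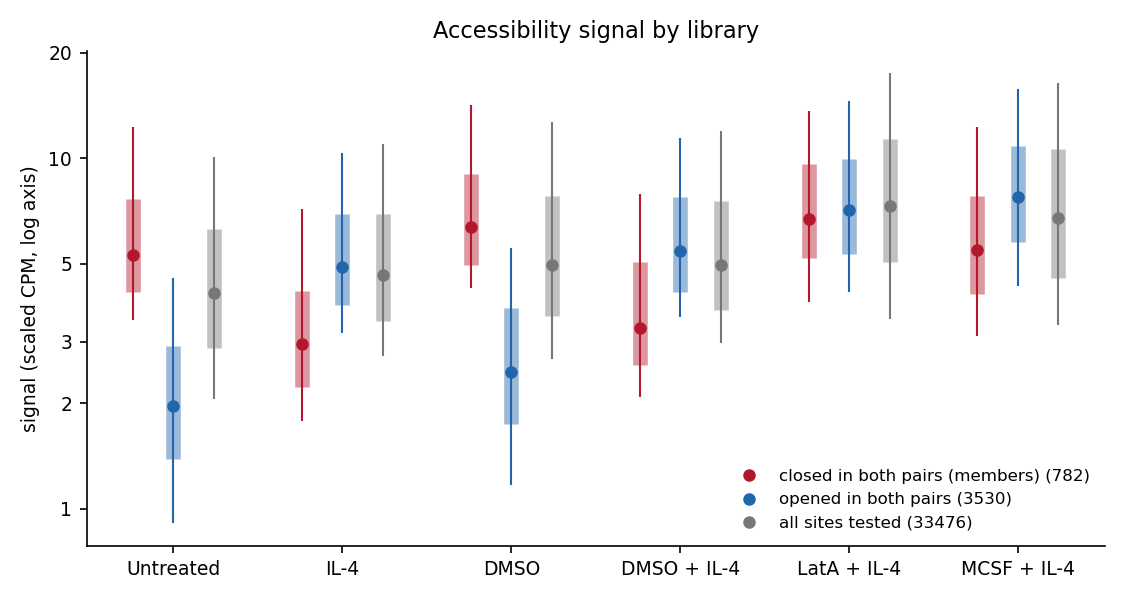
Signal (scaled CPM, log axis) in each library at the 782 members (red), at 3530 sites opened by IL-4 in both pairs (blue) and at all 33476 tested sites (grey). Points are medians, thick bars run from the 25th to the 75th percentile and thin lines from the 10th to the 90th percentile over sites. The red medians are 5.30 and 6.36 without IL-4, 2.96 and 3.29 with IL-4, and 6.69 and 5.46 with latrunculin A or MCSF added.

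Closing was partial at nearly every member. The signal left with IL-4 was a median of 57.5% of the Untreated signal (interquartile range 50.6 to 62.2%) and 55.0% of the DMSO signal (48.3 to 60.9%). Below, values of the DMSO pair are given without IL-4 first and with IL-4 second. The fall was at least 2-fold in both pairs at 66 members, at least 3-fold at 8 and at least 4-fold at 3. Only 1 member had a signal below 1 in both IL-4 libraries, and 29 had it in either. At 762 members both IL-4 libraries were below both libraries without IL-4 (18.9% of all tested sites), and at the other 20 they overlapped.

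Most members still held a peak in the IL-4 libraries, by the lists the authors called from the same reads. A peak overlapped all 782 members in the Untreated list and 781 in the DMSO list, against 97.6% and 97.8% of all tested sites. It overlapped 732 (93.6%) in the IL-4 list and 750 (95.9%) in the DMSO + IL-4 list, against 98.7% and 98.3% of all tested sites. The median fold enrichment of those peaks was 11.4 without and 7.02 with IL-4, 12.3 and 7.52 in the DMSO pair, 11.9 with added latrunculin A and 10.4 with added MCSF. Over all tested sites it was 9.29, 9.86, 10.6, 10.1, 12.7 and 11.5, in the same order. Peaks stood in all 6 lists at 699 members (89.4%), against 92.5% of all tested sites. At 16 members (2.05%, against 0.230%) there was a peak in both lists without IL-4 and in neither the IL-4 nor the DMSO + IL-4 list, and of these, 14 had a peak with latrunculin A and 13 with MCSF. Over all members the shares with a peak in those lists were 97.8% and 98.0%, so the 16 sites did not stand above them.

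Apart from the minimum mean, which ran over all 6 libraries, the pairs share no library, so sites chosen by the first pair could be read out in the second. Without vehicle, 1828 tested sites (5.46%) were closed, and with DMSO 3419 (10.2%) were closed. Of the 1828, 782 (42.8%) were also closed with DMSO, against 10.2% of all tested sites, and 108 (5.91%) were opened instead. Of the 3419, 22.9% were closed without vehicle, against 5.46% of all tested sites, and 199 (5.82%) were opened. The median log2 ratio of DMSO + IL-4 to DMSO was −0.51 at sites closed without vehicle and −0.04 over all tested sites. A fall in the first pair went with a fall in the second more often than at tested sites in general, although most sites closed without vehicle did not reach 1.5-fold with DMSO. The share depended on the thresholds: it was 17.2% against 2.00% at 2-fold, 27.0% against 12.6% with a minimum mean of 1.3, and 28.7% against 22.6% with no minimum.

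How often the pairs went together depended on the height of the site. Among sites closed without vehicle, 35.6% were also closed with DMSO at a mean signal from 3.2 to 4, where 10.9% of tested sites were. The share was 44.0% from 4 to 5, 44.5% from 5 to 7, 45.8% from 7 to 10 and 54.5% from 10 to 20. At a mean of 20 or more it was 69.0%, where 4.49% of tested sites were closed with DMSO. The ratios of DMSO to Untreated and of DMSO + IL-4 to IL-4 were both within 1.5-fold at 599 members (76.6%), against 74.6% of all tested sites, and at the other 183 at least 1 of them was not.

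The 8 members with the strongest closing, ranked by the weaker of their falls, were chosen by their values and varied widely in the other libraries. The first was chr3:146334285-146335404, where the signal was 7.14 without and 1.34 with IL-4, 1.81 and 0.080 in the DMSO pair, 4.78 with added latrunculin A and 7.74 with added MCSF. Its fall was 5.35-fold without vehicle (95% interval 3.37 to 8.90), and with DMSO, where 31 reads stood against 1, it was 22.6-fold (3.76 to 919). The DMSO library was itself low here, near the IL-4 library.

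The second, chr18:11288511-11288913, had a signal of 10.7 without and 2.23 with IL-4, 7.23 and 1.44 in the DMSO pair, 6.01 with added latrunculin A and 5.84 with added MCSF. The falls were 4.80-fold (3.35 to 7.07) and 5.01-fold (3.04 to 8.73). Both additions left this site between the levels with and without IL-4. The third, chr19:38105170-38105761, was at 8.87 without and 0.51 with IL-4, 13.3 and 3.05 in the DMSO pair, 0.89 with added latrunculin A and 4.25 with added MCSF. Its fall was 17.4-fold (8.66 to 41.0) without vehicle and 4.37-fold (3.09 to 6.33) with DMSO, and it stayed low with latrunculin A.

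Others of the 8 stayed low with MCSF, or were high or low with both additions. The site chr5:115121669-115122898 had a signal of 7.24 without and 1.91 with IL-4, 2.80 and 0.56 in the DMSO pair, 5.26 with added latrunculin A and 1.75 with added MCSF, so that it stayed low with MCSF. At chr18:78213008-78214397 the signal was 4.84 without and 1.27 with IL-4, 6.47 and 0.88 in the DMSO pair, 11 with added latrunculin A and 9.86 with added MCSF, and both additions took it above either library without IL-4. At chr14:7469269-7470388 it was 14.0 without and 4.32 with IL-4, 11.3 and 2.57 in the DMSO pair, 7.65 with added latrunculin A and 3.64 with added MCSF. This site, too, was low with MCSF, between the levels of the libraries with IL-4. At chr10:115425618-115426895 the signal was 7.33 without and 1.84 with IL-4, 6.01 and 1.84 in the DMSO pair, 2.53 with added latrunculin A and 3.03 with added MCSF, low with both additions. The remaining site, on chromosome 1, is given with the extremes of latrunculin A against MCSF. A library with 5 reads or fewer occurred at 10 of the 782 members.

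The member with the highest mean signal was chr17:39979963-39985749, 5787 bp long and the widest of all tested sites, with a signal of 589 without and 350 with IL-4, 574 and 376 in the DMSO pair, 405 with added latrunculin A and 454 with added MCSF. Its falls were 1.68-fold (1.63 to 1.74) and 1.52-fold (1.47 to 1.58), from 4694 to 12297 reads in each of the 4 libraries. The next was chr6:3150716-3151747, with 105 without and 59.1 with IL-4, 103 and 59.6 in the DMSO pair, 63.6 with added latrunculin A and 84.3 with added MCSF. At these sites the libraries without IL-4 were nearly equal, the libraries with IL-4 were nearly equal, and latrunculin A added little.

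The other 3 of the highest 5 were 562 to 617 bp wide. The site chr3:5860271-5860887 had a signal of 63.7 without and 34.3 with IL-4, 63.0 and 36.6 in the DMSO pair, 42.1 with added latrunculin A and 55.0 with added MCSF. At chr16:11143925-11144486 the signal was 62.5 without and 30.5 with IL-4, 61.2 and 35.5 in the DMSO pair, 40.3 with added latrunculin A and 37.5 with added MCSF. At chr18:54858527-54859103 it was 52.2 without and 32.4 with IL-4, 55.5 and 31.5 in the DMSO pair, 35.1 with added latrunculin A and 49.0 with added MCSF. The 3 sites were alike in the pairs and with latrunculin A, and differed with MCSF, where the chromosome 16 site was the lowest.

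The narrow strong members had like values, given as a description, since the libraries in these ratios took part in the choice of members. Of 29 members with a mean signal of at least 20, 18 were narrower than 700 bp, a width chosen after the values were seen. At these 18 the log2 ratio of DMSO to Untreated had a median of 0.00072 and a standard deviation over sites of 0.064. Their log2 ratio of LatA + IL-4 to DMSO + IL-4 ran from −0.05 to 0.39 (median 0.17), and that of MCSF + IL-4 to IL-4 from 0.23 to 0.76 (median 0.56). Over all tested sites with a mean of at least 20, the latrunculin A median was 0.10 at the 403 narrower than 700 bp and 0.45 at the 910 others. For MCSF these medians were 0.20 and 0.48, and for vehicle 0.25 and 0.37. The low latrunculin A ratio was thus shared by narrow strong sites in general. None of the 18 had another tested site whose reads were equal within 5% or 2 reads in every library. The reads had been aligned with up to 10 positions kept for each, and whether these sites hold repeated sequence was not tested. The 35 members narrower than 700 bp with a mean from 10 to 20 had like medians of −0.0048 for vehicle, 0.25 for latrunculin A and 0.58 for MCSF. At the 11 wider members with a mean of at least 20 the medians were 0.31 for vehicle, 1.05 for latrunculin A and 0.68 for MCSF. Those of the 753 members under a mean of 20 were 0.28, 0.95 and 0.87, near the wide ones for vehicle and latrunculin A but not for MCSF. Of the 11, 5 lay between 6 and 7 Mb on chromosome 17, and the medians of the other 6 were 0.25 for vehicle, 0.88 for latrunculin A and 0.61 for MCSF. The 2 highest of the wide sites, given above, had latrunculin A ratios of only 0.11 and 0.09, within the range of the narrow ones.

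**Figure D2:**
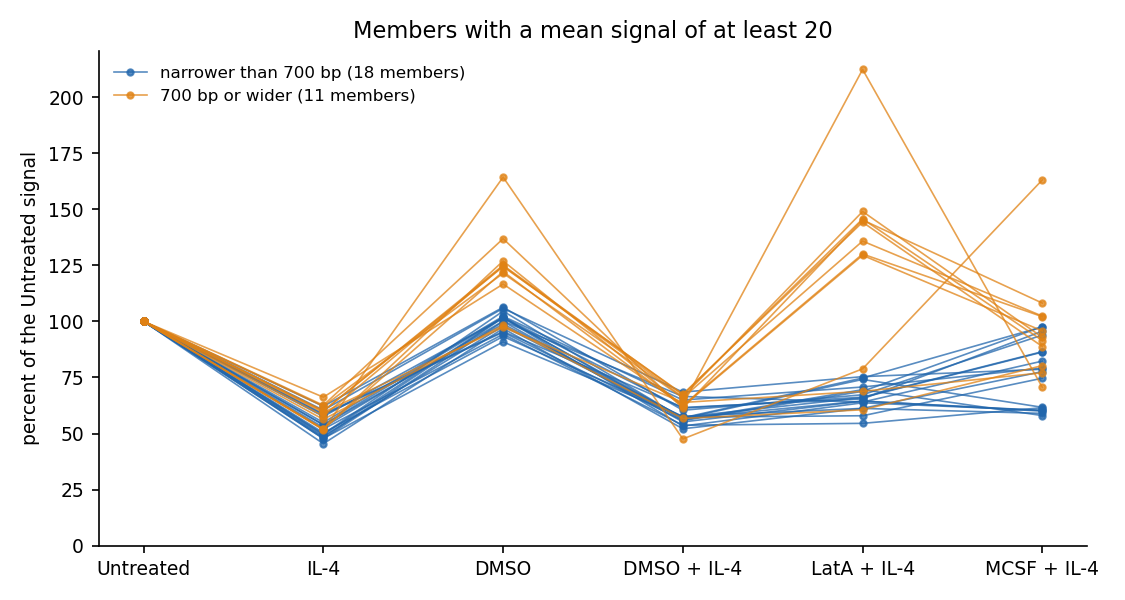
Signal of each of the 29 members with a mean of at least 20, as a percent of its own Untreated signal, in the 6 libraries; each line is a site, blue for the 18 narrower than 700 bp and orange for the 11 others. The blue lines are at about the Untreated level in the DMSO library, which had no IL-4. With latrunculin A they stay near the DMSO + IL-4 level (median log2 ratio 0.17), while most orange lines rise there (median log2 ratio 1.05). Over all tested sites with a mean of at least 20, these medians are 0.10 for the narrower and 0.45 for the wider ones.

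A group of wider members lay together on chromosome 17, where 7 members fell between 6 and 7 Mb. Some of them had nearly the same reads in every library. The site chr17:6654020-6655628 held 592 reads without and 268 with IL-4, 605 and 239 in the DMSO pair, 599 with added latrunculin A and 332 with added MCSF. The site chr17:6805824-6807439 held 592 without and 268 with IL-4, 608 and 238 in the DMSO pair, 605 with added latrunculin A and 342 with added MCSF. The pair chr17:6600451-6601485 and chr17:6859967-6861001, both 1035 bp long, was as close, with 490 and 501 reads in the Untreated library and 192 and 196 in the IL-4 library.

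All 7 members of this stretch were higher with latrunculin A than with DMSO + IL-4, at log2 ratios from 1.05 to 1.16, and higher with MCSF than with IL-4, at log2 ratios from 0.56 to 0.97. Over all members the medians of these ratios were 0.95 and 0.86. Both control libraries took part in the choice of members, so the ratios are a description. In all, 35 members had a tested site whose reads were equal within 5% or 2 reads in every library, and for 6 of these it lay on the same chromosome. The part of reads aligned to more than 1 position in these values was not tested. Without the 35 members, 747 remained.

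Latrunculin A and MCSF were read out at sites whose closing was called without their control libraries, although the minimum mean ran over all 6. The question is whether sites that IL-4 closed were more open when the actin cytoskeleton was disrupted or when MCSF was added. At the 1828 sites closed without vehicle, the median log2 ratio of LatA + IL-4 to DMSO + IL-4 was 0.71, against 0.54 over all tested sites. It was at least 1.5-fold higher at 58.5% of them (45.9% of all tested) and at least 1.5-fold lower at 10.7% (5.24%). At the 3419 sites closed with DMSO, the median log2 ratio of MCSF + IL-4 to IL-4 was 0.64, against 0.55. It was at least 1.5-fold higher at 55.6% (47.1% of all tested) and lower at 5.97% (4.92%). With the minimum taken only over the pair that called the closing, an alternative added after seeing the data, the medians were 0.57 for latrunculin A (1555 sites), against 0.47 over the sites then tested, and 0.61 for MCSF (3293 sites), against 0.49.

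The excess over all tested sites was small, and it rested on the thresholds. With no minimum signal, the medians were −0.11 for latrunculin A and −0.0071 for MCSF, against 0 over all sites. With closing set at 2-fold, the medians were 0.50 for latrunculin A, below the 0.54 of all tested sites, and 0.56 for MCSF against 0.55. By height, the latrunculin A median exceeded that of all tested sites by 0.17 to 0.21 in each range of mean signal below 10, by 0.06 from 10 to 20, and was lower by 0.18 at 20 or more, where 42 sites were closed without vehicle. The MCSF median exceeded it by 0.19 from 3.2 to 4, by 0.05 to 0.10 from 4 to 20, and by 0.16 at 20 or more, where 59 sites were closed with DMSO.

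**Figure D3:**
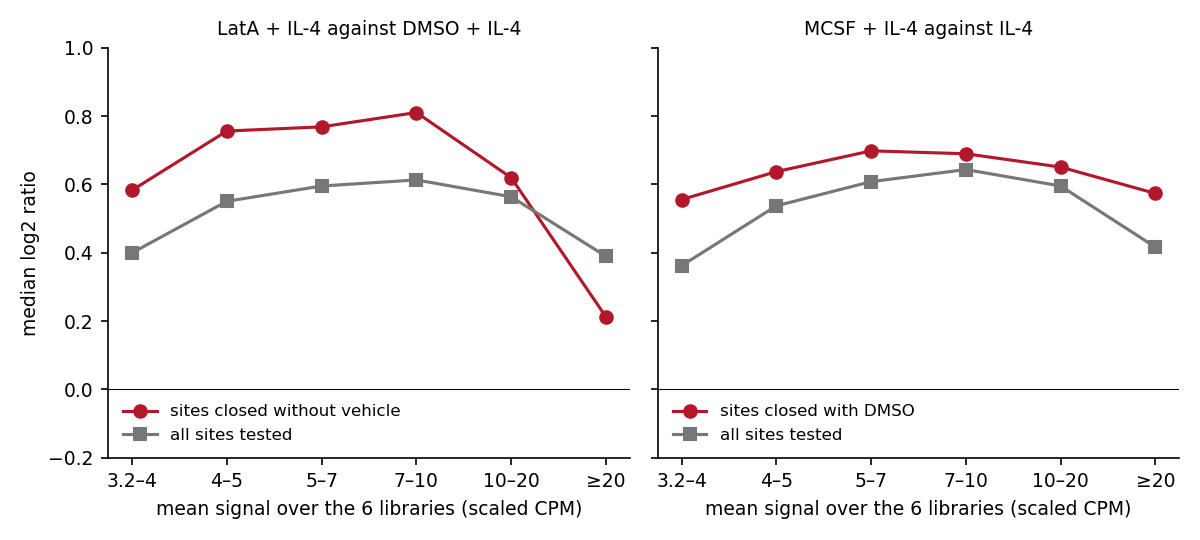
Median log2 ratio over sites against the mean signal (scaled CPM, in 6 ranges). On the left, LatA + IL-4 to DMSO + IL-4 at the 1828 sites closed without vehicle (red) and at all tested sites (grey); on the right, MCSF + IL-4 to IL-4 at the 3419 sites closed with DMSO (red) and at all tested sites (grey). The red points lie above the grey ones except at a mean of 20 or more on the left, where they are 0.21 and 0.39.

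At the members themselves the control libraries had taken part in the choice, so the next values are levels only. LatA + IL-4 reached at least the lower of the Untreated and DMSO levels at 601 of 782 members (76.9%, against 87.3% of all tested sites). MCSF + IL-4 did so at 455 (58.2%, against 85.1%), and both did at 407 (52.0%, against 81.6%). LatA + IL-4 stayed at or below the higher of the IL-4 and DMSO + IL-4 levels at 55 members (7.03%, against 20.9%), MCSF + IL-4 at 84 (10.7%, against 26.2%), and both at 32 (4.09%, against 15.1%). Against their own controls, both additions were at least 1.5-fold higher at 509 members (65.1%, against 28.1%). The choice of members by low IL-4 and high control levels enters all of these shares, and nothing is read from them.

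LatA + IL-4 against MCSF + IL-4 used no library of the pairs, and both entered the rule only through the minimum mean. Latrunculin A had been set against the control with DMSO and MCSF against the one without, so this ratio may also hold a vehicle difference. The median log2 ratio of DMSO + IL-4 to IL-4 was 0.21 at the members and 0.12 over all tested sites. The part of the vehicle in the values below was not tested. The members were higher with latrunculin A than with MCSF in 593 of 782 cases (75.8%), compared with 61.4% of tested sites and 43.9% of sites opened by IL-4. The median log2 ratio was 0.26 at the members (interquartile range 0.02 to 0.51), 0.11 over all tested sites and −0.09 at opened sites. It was at least 1.5-fold higher at 165 members (21.1%), against 12.6% of all tested sites, and at least 1.5-fold lower at 45 members (5.75%), against 7.57%. With the minimum taken over the 4 libraries of the pairs only, 698 sites were closed in both, with a median of 0.25 against 0.10 over the sites then tested. Of these, 20.1% were higher (11.6%) and 7.02% lower (6.86%), so that the smaller share of lower sites did not hold, and with no minimum the median was 0, as over all sites. With the minimum as in the rule, the members and the opened sites lay on opposite sides of the tested sites. The read-ratio interval was above 1 at 32.1% of members and 22.5% of tested sites, and below 1 at 9.21% and 12.1%. By height, the members' median was 0.29 from 3.2 to 4, 0.32 from 4 to 5, 0.27 from 5 to 7 and 0.25 from 7 to 10, then 0.11 from 10 to 20 and −0.06 at 20 or more, where all tested sites had 0.12 and 0.07.

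The extremes of this ratio included members at or near 0 in the MCSF library. The site chr4:140064283-140065794 had a signal of 4.74 without and 2.48 with IL-4, 5.66 and 1.60 in the DMSO pair, 7.24 with added latrunculin A and 0.076 with added MCSF, which was 106 reads against 1, a ratio of 95.4 (16.8 to 3805). The site chr1:184822937-184824839, also among the strongest closings, had 11.1 without and 2.29 with IL-4, 8.11 and 2.41 in the DMSO pair, 7.10 with added latrunculin A and 0.076 with added MCSF, again 1 read, for a ratio of 93.6 (16.4 to 3733). Both were sharply lower with MCSF than with IL-4 alone, at 39 and 36 reads in the IL-4 library.

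The site chr1:193881141-193881831 had 5.51 without and 3.56 with IL-4, 11.3 and 5.69 in the DMSO pair, 1.5 with added latrunculin A and 0 with added MCSF, low with both additions. The signal with latrunculin A was 6.60 times a floor of 3 reads in the MCSF library, and the exact interval of the ratio began at 4.93. The fourth, chr18:12890153-12891320, had 6.28 without and 2.92 with IL-4, 5.37 and 1.68 in the DMSO pair, 6.01 with added latrunculin A and 0.68 with added MCSF. Its signal with latrunculin A was 8.80 times that with MCSF (4.43 to 19.9). It lay within the range of the libraries without IL-4 in the former and below both IL-4 libraries in the latter.

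At the other end, chr5:114545865-114547182 had 5.66 without and 2.48 with IL-4, 8.11 and 2.49 in the DMSO pair, 0 with added latrunculin A and 2.88 with added MCSF. The 0 reads with latrunculin A stood against 38 with MCSF. The signal with MCSF was 14.1 times a floor of 3 reads in the latrunculin A library, and the exact interval of the fall began at 10.9. The site chr18:24304856-24306724 had 4.65 without and 2.54 with IL-4, 3.56 and 1.68 in the DMSO pair, 0.68 with added latrunculin A and 7.44 with added MCSF. The site thus closed further with latrunculin A and rose above both libraries without IL-4 with MCSF.

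The site chr13:91223865-91225457 had 5.99 without and 1.91 with IL-4, 5.83 and 2.49 in the DMSO pair, 1.43 with added latrunculin A and 10.6 with added MCSF. The site chr15:59264416-59266318 had 8.0 without and 4.01 with IL-4, 5.13 and 1.52 in the DMSO pair, 1.23 with added latrunculin A and 6.45 with added MCSF. Both were low with latrunculin A and back near or above the level without IL-4 with MCSF. The ratios were 0.135 (0.081 to 0.215) and 0.191 (0.108 to 0.320).

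In width the members were near the tested sites and unlike the opened ones. Their median width was 797 bp (interquartile range 615 to 1032), against 745 bp over all tested sites and 617.5 bp at opened sites. The share of tested sites that were members was 1.80% under 300 bp, 1.71% between 300 and 500 bp, 2.94% between 700 and 1000 bp and 2.16% at 1500 bp or more. The share that was opened was 6.59%, 16.7%, 10.0% and 2.99% over the same ranges.

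The members were spread unevenly over the chromosomes. They made up 4.96% of tested sites on chromosome 11 (91 of 1834), 3.80% on chromosome 17, 3.35% on chromosome 19 and 3.33% on chromosome 15. The share was 0.958% on chromosome 3 (19 of 1983), 1.08% on chromosome 18, 1.31% on chromosome 13 and 1.35% on chromosome 14. Opened sites made up 8.02% on chromosome 11, 8.05% on chromosome 17, 12.6% on chromosome 3 and 14.1% on chromosome 14, the other way round. Not every chromosome followed this: chromosome 13 had 10.3% opened, near the 10.5% of all, and chromosome 8 was low in both, with 1.93% members and 8.26% opened.

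The share of members tended to be larger on chromosomes with more G and C. Over the 19 chromosomes, Spearman's rho with the GC content of the chromosome of that number in GRCm38 was 0.67 (Pearson's r 0.78) for members and −0.85 (r −0.81) for opened sites. It was 0.75 for sites closed without vehicle and 0.72 for sites closed with DMSO, which share no library. The 19 points share the same libraries and are given as a description. Chromosome 7, with 43.1% GC and 2.19% members, went against the trend, and the part of base composition in these shares was not tested.

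**Figure D4:**
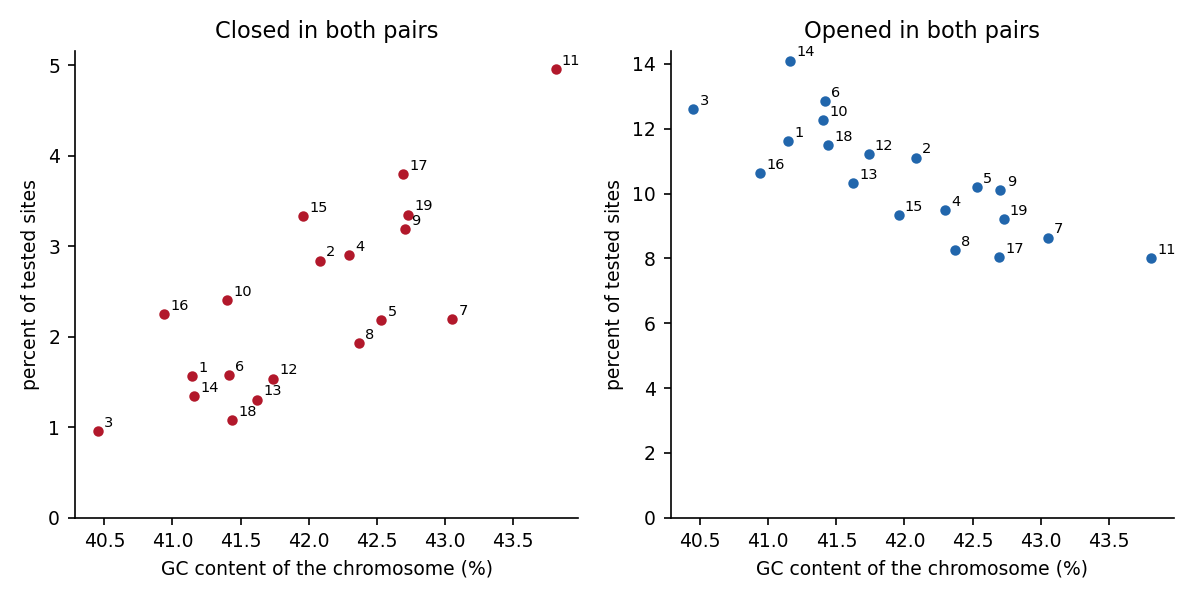
Percent of tested sites that were members (left, red) or opened by IL-4 in both pairs (right, blue) on each of chromosomes 1 to 19, numbered, against the chromosome's GC content (percent, GRCm38). The share of members goes from 0.958% on chromosome 3 to 4.96% on chromosome 11, and the share opened is 12.6% and 8.02% on these.

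Members lay near other members. Another member had its centre within 50 kb of 14.5% of members (113 of 782), of 5.46% of all tested sites and of 3.37% of opened sites. An opened site lay within 50 kb of 11.5% of members, of 25.5% of tested sites and of 40.5% of opened sites. The rule used no position.

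Of the tested sites within 5 kb of a member, 11.1% (24 of 217) were members too. The share was 3.81% (8 of 210) from 5 to 10 kb, 8.54% (34 of 398) from 10 to 20 kb and 6.41% from 20 to 50 kb, an uneven series on small counts. It ran from 5.57% to 6.51% in the ranges from 50 to 500 kb and was 5.70% from 500 to 1000 kb (860 of 15098), above the 2.34% of all tested sites. Around opened sites, the share of neighbours opened fell from 24.8% within 5 kb to 18% between 50 and 100 kb, 15.7% between 100 and 200 kb, 12.3% between 200 and 500 kb and 11.5% between 500 and 1000 kb, against 10.5% of all tested sites. Both shares were above those of all tested sites in each of these ranges. Sites in dense stretches count in more than 1 such distance, and the shares carry no test.

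**Figure D5:**
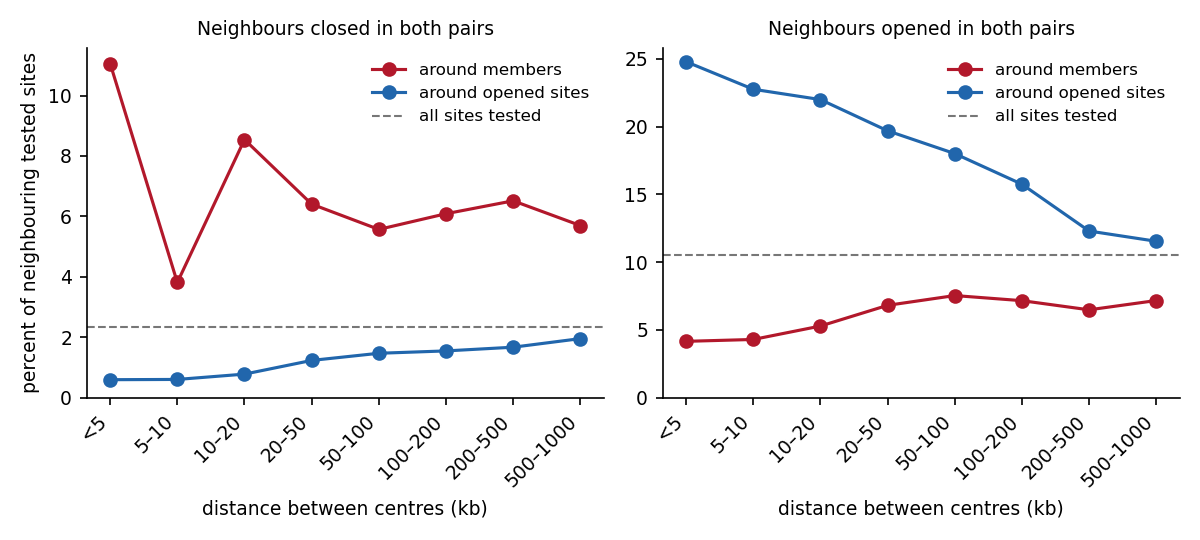
Percent of tested neighbours that were closed (left) or opened (right) in both pairs, by distance between centres in kb, around members (red) and around opened sites (blue); the dashed line is the share of all tested sites. On the left the red points are 11.1% within 5 kb and 5.70% at 500 to 1000 kb, and on the right the blue points go from 24.8% to 11.5%.

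With members joined where centres were within 50 kb, 669 stood alone, 41 runs held 2, 5 held 3 and 4 runs held 4. The longest runs tied at 4 members. A run of 31.5 kb at chr12:86795842-86827328 had 4 members among 5 tested sites, and a run of 24.8 kb at chr7:149559591-149584382 had 4 among 5. A run of 65.6 kb at chr19:6275929-6341516 had 4 among 7, and a run of 113 kb at chr5:138186813-138299536 had 4 among 8.

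In the chromosome 7 run, the highest member, chr7:149573328-149574152, had a signal of 8.34 without and 4.64 with IL-4, 10.6 and 5.77 in the DMSO pair, 6.76 with added latrunculin A and 6.90 with added MCSF. In the chromosome 19 run, chr19:6275929-6277056 had 8.0 without and 3.56 with IL-4, 9.22 and 4.65 in the DMSO pair, 11.7 with added latrunculin A and 6.52 with added MCSF. Latrunculin A took the latter above both libraries without IL-4 and left the former below them.

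In the chromosome 12 run, chr12:86795842-86796751 had 10.6 without and 6.99 with IL-4, 13.9 and 8.26 in the DMSO pair, 15.8 with added latrunculin A and 12.4 with added MCSF. In the chromosome 5 run, chr5:138227227-138228652 had 8.20 without and 4.58 with IL-4, 9.51 and 5.77 in the DMSO pair, 11.3 with added latrunculin A and 9.41 with added MCSF. At both, the additions reached or passed the Untreated level.

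Sites on either side of the thresholds were much alike. Just inside the fold, chr11:121097901-121098861 had a signal of 11.4 without and 6.29 with IL-4, 13.6 and 9.06 in the DMSO pair, 15.6 with added latrunculin A and 10.6 with added MCSF. Just outside it, chr17:35301391-35302534 had 9.20 without and 6.10 with IL-4, 11.7 and 6.98 in the DMSO pair, 15.8 with added latrunculin A and 10.4 with added MCSF. The deciding log2 ratios were −0.59 for the former and −0.58 for the latter, and with intervals of 1.20 to 1.90 and 1.17 to 1.95 for the falls they differed by less than counting error. The other pairs at the fold were chr4:137149430-137150844 and chr9:57612232-57613510 inside, and chr16:17451651-17452789 and chr11:61575208-61575856 outside, with deciding log2 ratios of −0.59 and −0.58 again.

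At the minimum mean, the members chr11:116251783-116252258 and chr9:63489994-63490464 were just above 3.2. The sites chr16:23224700-23225787 and chr11:78325392-78326191 met the fold and fell just below it. The former had 2.88 without and 1.53 with IL-4, 3.91 and 2.49 in the DMSO pair, 5.26 with added latrunculin A and 3.11 with added MCSF. The first of the members had 3.93 without and 2.35 with IL-4, 4.32 and 2.08 in the DMSO pair, 4.17 with added latrunculin A and 2.35 with added MCSF. The site below the minimum fell 1.88-fold (1.16 to 3.16) without vehicle and 1.57-fold (1.01 to 2.49) with DMSO, and the member 1.67-fold (1.12 to 2.53) and 2.07-fold (1.31 to 3.37), with intervals that overlapped in each pair.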

How the data were processed

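ATAC-seq libraries of BMDMs were analysed from the deposited table of sites and from 6 peak lists. The authors trimmed reads with Cutadapt, aligned them to mm9 with Bowtie2 keeping up to 10 alignments a read, removed duplicates (Picard), mitochondrial and blacklisted reads, called peaks with MACS2 (q 0.05), and counted reads in sites with featureCounts. The deposited signal is in CPM scaled by edgeR's TMM; 100% of values were whole reads within 0.01 read. The authors' peak lists give fold enrichment and −log10 q for each library. Each library was a group by its treatment label. Log2 ratios were taken with 0.1 added, sites on chromosomes X and Y were left out, and overlap of peaks was at least 1 bp (bedtools 2.31.1). Shares and ratio intervals used scipy 1.17.1. The calls were checked on simulated reads that had counting error only and, apart from planted falls, the same level in every library. Recovery was read at falls of 2-fold or more. That check thus covers neither variation between libraries nor falls near 1.5-fold. Alternatives changed the scaling, fold, added value, minimum and sites. Sites named in the text were the 8 strongest closings, the 5 highest, the 4 highest and 4 lowest LatA + IL-4 to MCSF + IL-4 ratios, those at the thresholds and the longest runs, with chromosome 17 sites of near-equal reads chosen after their values were seen. Members and lists were chosen with earlier results of these data known. Coordinates are mm9, 1-based. Genes near sites, macrophage markers, motifs and sequences were not analysed here, since the genome used here was another build.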

Additional observations from a re-analysis of the deposited data

Results flagged for a closer look

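Latrunculin A and MCSF went opposite ways, each by at least 1.5-fold against its own control, at a few members. At 13 members (1.66%, against 0.786% of all tested sites) the signal was higher in LatA + IL-4 than in DMSO + IL-4 and lower in MCSF + IL-4 than in IL-4. At 5 (0.639%, against 0.615%) the fall came with latrunculin A and the rise with MCSF, a share near that of all tested sites. These sites were noted because the effects of the additions pointed in opposite directions, the difference was not tested, and all rest on 1 library a group. Both control libraries took part in the choice of members, which enters these shares, and nothing is read from them.

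Chromosome X lay outside the rule. There, 13 of 1865 sites met the same thresholds (0.697%), and none of 108 did on chromosome Y. The 13 had median signals of 7.09 without and 3.81 with IL-4, 7.0 and 4.09 in the DMSO pair without and with IL-4, 3.28 with added latrunculin A and 4.25 with added MCSF. Site by site, their median log2 ratio was −0.038 for LatA + IL-4 to DMSO + IL-4 and 0.31 for MCSF + IL-4 to IL-4. The median log2 ratio over all 1865 sites of chromosome X was −0.14 for LatA + IL-4 to DMSO + IL-4 and −0.18 for MCSF + IL-4 to IL-4, so the sites of this chromosome as a whole did not share the higher level of chromosomes 1 to 19 in these libraries.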

How the results depend on the processing

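The count of 782 members stayed within 1.5 times under 13 of 18 alternatives, among them other scalings, the removal of the trend with signal, and peaks in both lists without IL-4. Of the 782, 680 remained with plain scaling by reads in sites, 722 with the trend removed and all with median-of-ratios scaling. It was 66 at 2-fold, 2965 at a laxer fold (a log2 ratio of 0.32), 2930 with a minimum mean of 1.3, 240 with 6.4, and 30929 with no minimum. The sites tested numbered 122938 with the minimum of 1.3, 12651 with 6.4 and 533249 with none, against 33476 in the rule. The counts under other minima thus also follow the number of sites tested. Sites opened in both pairs numbered 1523, 6282, 10882, 1018 and 44033 under the same 5 settings.

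The share of sites closed without vehicle that were also closed with DMSO was 35.6% with plain scaling, 33.6% with the trend removed, 17.2% at 2-fold, 59.5% at the laxer fold, 39.7% with 0.5 added, 27.0% and 51.3% with minimum means of 1.3 and 6.4, and 28.7% with none. Of all sites tested in each setting, 8.07%, 9.26%, 2.00%, 25.7%, 8.62%, 12.6%, 8.49% and 22.6% were closed with DMSO, in the same order. With no minimum, most of the excess thus went with the weakest sites included.

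The latrunculin A median was 0.68 with plain scaling, 0.14 with the trend removed, 0.50 at 2-fold, 0.68 at the laxer fold, 0.64 with 0.5 added, 0.041 and 0.74 with minimum means of 1.3 and 6.4, and −0.11, a reversal, with none. With the trend removed, the median of all sites is 0 as well, so the excess was 0.14 for latrunculin A and 0.092 for MCSF. The former was below the median of all sites at 2-fold, with the 1.3 minimum (0.23) and with none (0). The MCSF median was 0.57, 0.092, 0.56 at 2-fold, 0.60 with 0.5 added, 0.21 and 0.67 with the minimum means, and −0.0071, also reversed, with none. Their cause was not tested. The median of LatA + IL-4 to MCSF + IL-4 at the members was 0.16 with the trend removed, 0.32 at 2-fold, 0.18 and 0.19 with the minimum means, and 0 with none. Over all sites tested in each setting it was −0.00041, 0.11, 0.056, 0.12 and 0, in the same order.

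The share of members near another was 20.5% with the trend removed, 6.06% at 2-fold, 35.1% at the laxer fold, 11.7% with 0.5 added, 23.4% and 4.58% with the minimum means, 75% with none, 6.78% within 20 kb and 23.4% within 100 kb. Of all tested sites, 2.30% lay within 20 kb of a member and 9.91% within 100 kb. More members, or a longer distance, raise the share of members near another by construction, though not by number alone. Alternatives chosen after seeing the data left 599 members with steady vehicle ratios, 747 without near-equal sites, 753 without means of at least 20 and 762 without overlap. With the minimum over the choosing libraries only, the latrunculin A median was 0.57 and the MCSF median 0.61. Each group had 1 library, so no replicate was left out, and a joint fit of IL-4 and vehicle over the pairs was not run, since the members were chosen by them. Depth limits single sites: a signal of 3.2 is 39.9 to 66.8 reads.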
